A study of Mus musculus with 8 samples.

Results

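The nuclear-encoded subunits of the mitochondrial respiratory chain were compared between resident microglia and invading macrophages of the ischemic mouse brain. The genes were taken from the array by name: every gene probe whose name starts with Nduf, Uqcr, Cox4, Cox5, Cox6, Cox7, Cox8 or Atp5, together with Sdha, Sdhb, Sdhc and Sdhd. This gave 93 of the 34821 gene names on the array, of which 38 were assigned to complex I, 4 to complex II, 8 to complex III, 18 to complex IV and 15 to complex V, by name alone. Another 7 are assembly factors of complex I (the Ndufaf genes), and 3 carry an Atp5 name without being subunits (the pseudogene Atp5c1-ps, Atp5s and Atp5sl). Of the 93, 89 cleared the background flag on 4 or more of the 8 arrays and were tested among the 19745 gene names that met this limit. The other 4 were Cox7b2, Cox8b and Cox8c, which were above background on 0 arrays, and Ndufa4l2, which was above it on 1.

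The samples came from C57BL/6 mice carrying transplanted bone marrow, whose brains underwent 30 min of middle cerebral artery occlusion and then 7 days of reperfusion, with no other treatment. Resident microglia were sorted as GFP-positive cells and invading macrophages as RFP-positive cells, and per the labels the 4 animals (A to D) each contributed 1 microglia and 1 macrophage sample. All 8 samples therefore share the chimerism and the ischemia, and no uninjured brain or blood sample was analysed here. The sources used here give neither the alleles that drive GFP and RFP, nor whether donor or host carried them, nor the age of the mice, nor any gate beyond the fluorescence. RNA was amplified by a global PCR and hybridised to one-colour Agilent arrays.

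The respiratory chain lies in the inner mitochondrial membrane. Complex I takes electrons from NADH and complex II from succinate, complex III passes them from ubiquinol to cytochrome c, complex IV passes them on to oxygen, and the proton gradient built on the way drives the ATP synthase, complex V. Most subunits are encoded in the nucleus and imported, while a few core subunits are encoded by mitochondrial DNA, and in microglia and macrophages the balance of oxidative phosphorylation and glycolysis is known to shift with the state of activation.

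An array had 45.7% to 57.1% of its 55681 probes above background and no saturated gene probe. Of 8 microglia markers 5 were lower in the macrophages, and of 8 macrophage markers 5 were higher (limma, adjusted p under 0.05). Macrophage replicate 2, from animal B, stood apart: it correlated with the other macrophage arrays at 0.855 to 0.887, where these correlated among themselves at 0.943 to 0.960. The summed level of 10 endothelial markers was 2.02 to 2.44 (log2) in microglia and 3.57 to 9.60 in macrophages, with the highest value in replicate 2 and at most 5.97 without it. Of these 10 markers 4 were higher in macrophages, and each of the 10 was above background on at least 1 array. Of 6 natural killer cell markers 2 were higher, with a summed level of -0.61 to -0.21 in microglia and 0.41 to 4.22 in macrophages. Red cell markers summed to -3.63 to 0.47 in microglia and 1.27 to 7.69 in macrophages, and neutrophil markers to 7.09 to 7.41 and 7.51 to 7.82. Pericyte and smooth muscle markers summed to 3.02 in macrophage replicate 2 and at most -0.59 in the other macrophages. Astrocyte markers summed lower in macrophages, at 0.91 to 2.59 against 3.68 to 3.84. The sums for neurons, oligodendrocytes, T cells and B cells overlapped between the groups. The part of these cells in the results was not tested, and results are given with and without replicate 2. The arrays lay on 2 slides, slide 1 with 2 microglia and 1 macrophage array and slide 2 with 2 and 3.

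No respiratory chain gene passed the test. In simulated data it recovered 2 of 50 genes changed by 1 log2 unit, but fewer genes were changed there than were called in the data. Of the 89 genes, 0 were higher and 0 lower in macrophages at an adjusted p of 0.05 (limma with Benjamini-Hochberg adjustment over all 19745 genes), where 2.51% of all tested genes were higher and 4.14% lower, 6.65% together. At an unadjusted p under 0.05, 14 of the 89 (15.7%) differed, all of them higher in macrophages, against 23.9% of all genes (11.5% higher and 12.5% lower). The genes nonetheless lay mostly on one side, as did the ribosomal and proteasome genes given below. The difference, macrophages minus microglia on the log2 scale, was above 0 for 71 of 89 (79.8%, against 51.2% of all genes), and its median was 0.34, against 0.019 over all tested genes. In bulk samples such as these, RNA per cell and the share of cells that hold it cannot be told apart.

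Most fitted differences were small. Only 8.99% of the respiratory chain genes differed by more than 1 log2 unit, against 20.1% of all genes. A probe above background on all 8 arrays was present for 84 of the 89 genes and 15046 of all 19745. The part of brightness in these shares was not tested. The 95% intervals of 75 genes excluded a halving in macrophages (84.3%, against 60.6% of all genes) and those of 38 excluded a doubling (42.7%, against 59.9%). Both were excluded for 29 (32.6%), near the 29.8% of all genes. The median interval reached 0.72 log2 units to either side. Within animals, the median difference was 0.24 in A, 0.31 in B, 0.48 in C and 0.63 in D, and 54, 60, 72 and 69 of the 89 genes were higher in the macrophages of the same animal. All 4 animals had the higher value in macrophages for 31 genes (34.8%, against 17.9% of all genes) and the higher value in microglia for 4 genes (4.49%, against 17.0%). The groups did not overlap for 6 genes with higher macrophage values (6.74%, against 7.49% of all genes) and for 1 with lower ones (1.12%, against 9.47%).

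**Figure D1:**
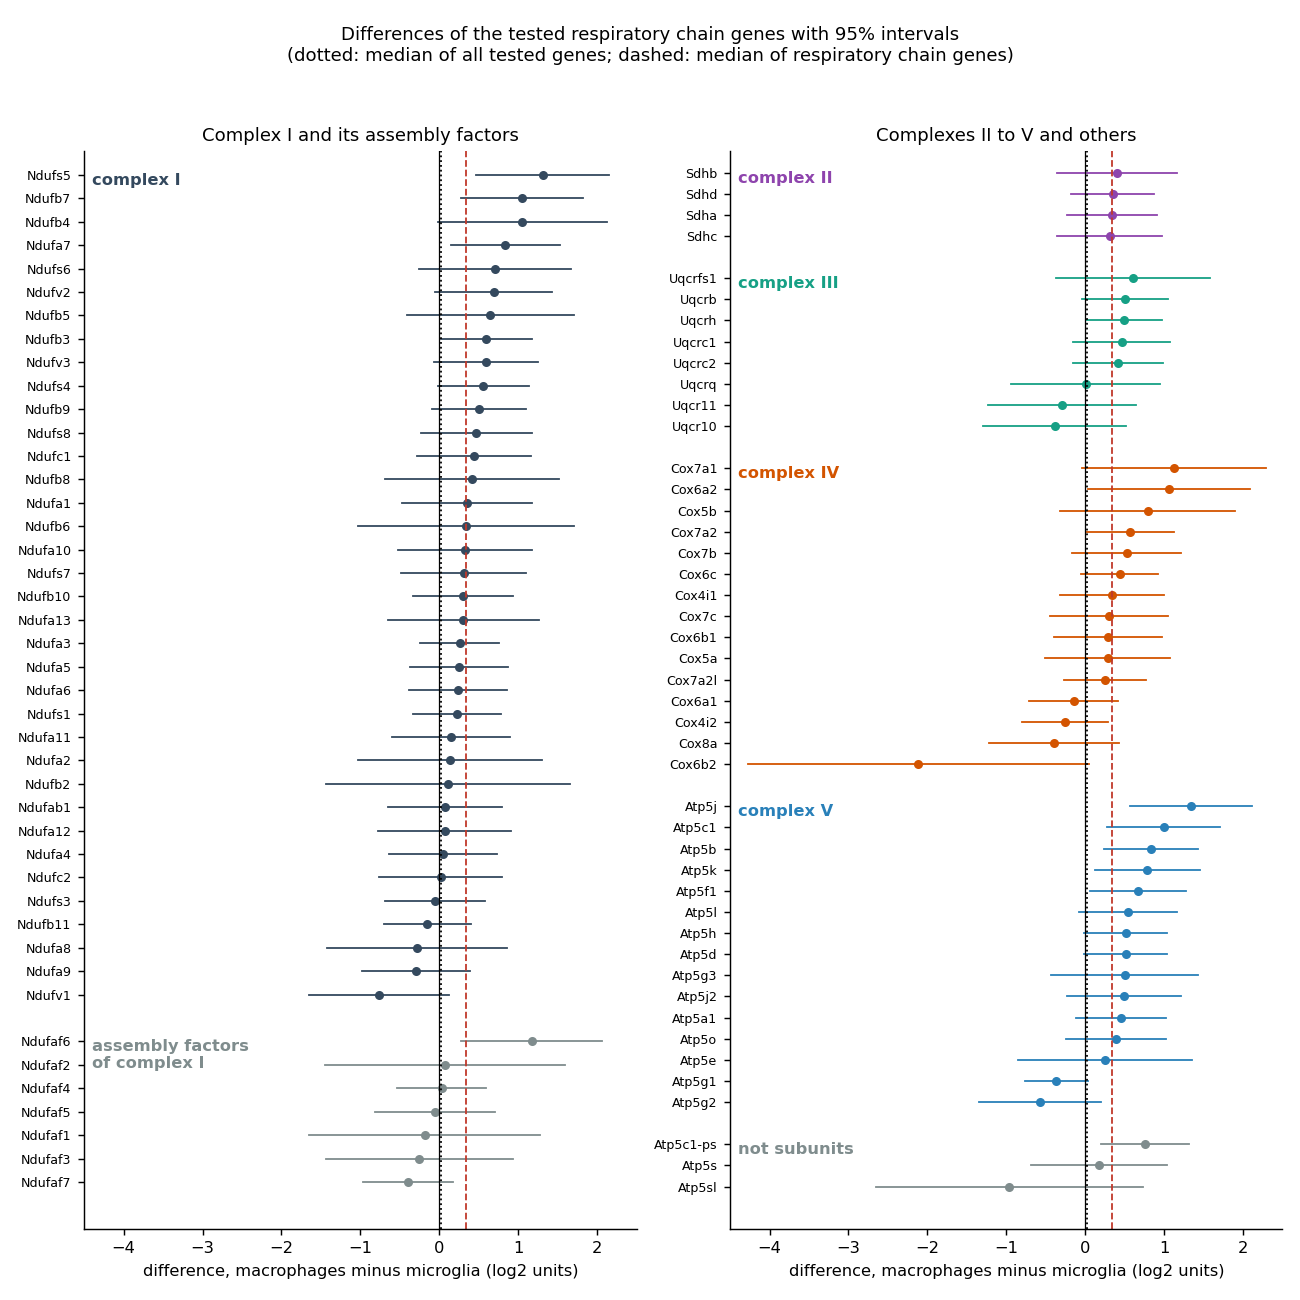
Difference between macrophages and microglia (log2 units, horizontal axis) of 88 of the 89 tested respiratory chain genes, ordered by complex; points are fitted differences and lines 95% intervals. The dashed line at 0.34 is the median of these genes and the dotted line at 0.019 that of all tested genes, and most points lie to the right of 0 while 74 of the intervals stay above -1.

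The 4 arrays of a group did not sit together. Each gene was expressed as its deviation from its mean over the 8 arrays, and the median deviation of the 89 genes was 0.19, -0.46, -0.20 and -0.20 for microglia replicates 1 to 4. For macrophage replicates 1 to 4 it was 0.36, -0.17, 0.33 and 0.33. Macrophage replicate 2 lay among the microglia, and microglia replicate 1 lay above it. Macrophage replicate 2 had the lowest value of its group for 60 of the 89 genes, microglia replicate 1 the highest of its group for 57 and microglia replicate 2 the lowest for 44. The same array of macrophages was low over all tested genes too, with a median deviation of -0.23.

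Without macrophage replicate 2 the median difference of the 89 genes was 0.52 and 6 of them were higher (6.74%, against 8.26% of all genes): Atp5b, Atp5c1, Atp5c1-ps, Cox7a1, Cox7b and Ndufb6. None was lower there (0 of 89, against 6.86% of all genes). Without microglia replicate 2 the median was 0.25, and without microglia replicate 1 it was 0.49 with Atp5c1 alone higher. With slide as a block the median was 0.37, and within slide 1 and slide 2 it was 0.48 and 0.32, with 0 genes called in each of these 3 fits. With the animal as a block 0 were called too (1.29% of all genes were then higher and 2.45% lower). With arrays weighted by how well they followed their group, 12 were higher (13.5%, against 10.3% of all genes) and 0 lower (8.47% of all genes): Atp5b, Atp5c1, Atp5c1-ps, Atp5d, Atp5f1, Atp5j, Atp5k, Cox7a1, Cox7b, Ndufb7, Ndufs4 and Ndufs5.

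**Figure D2:**
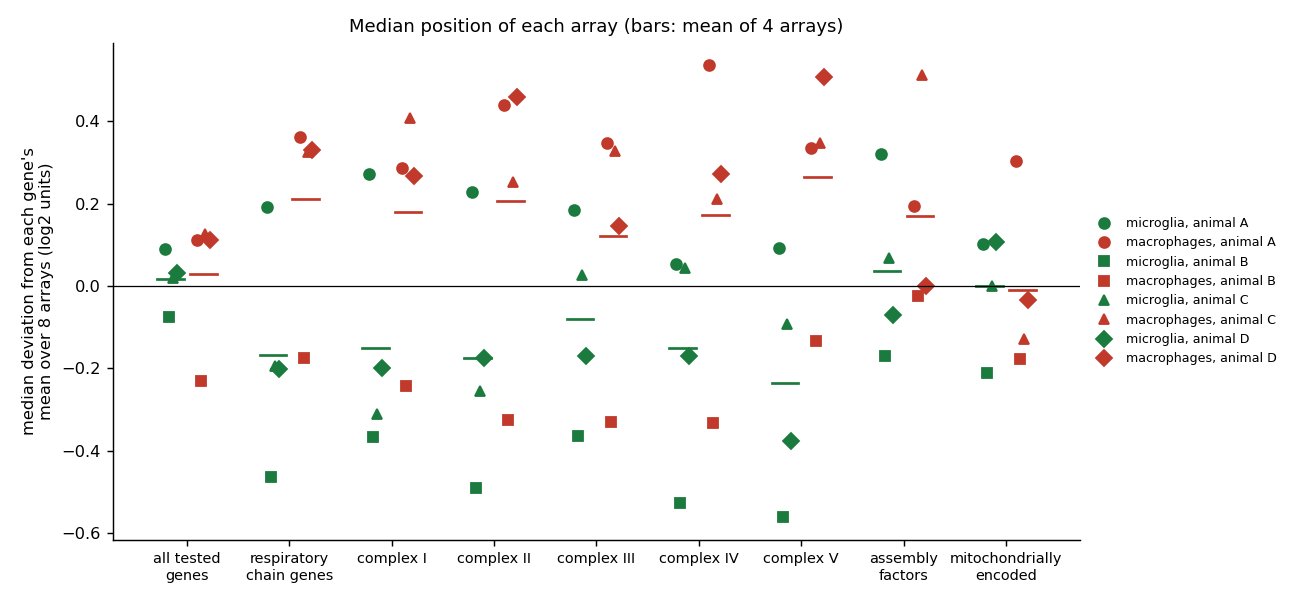
Median deviation of the genes of each list from their own mean over the 8 arrays (log2 units, vertical axis), 1 symbol per array, with microglia in green and macrophages in red, shapes for animals A to D and bars for the mean of 4 arrays. For the respiratory chain genes the macrophage arrays lie at 0.36, -0.17, 0.33 and 0.33 and the microglia arrays at 0.19, -0.46, -0.20 and -0.20, with macrophage replicate 2 among the microglia; for the 13 mitochondrially encoded genes the group means lie near 0.

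At the level of single probes, 1 respiratory chain gene stood out. Ndufv3, an accessory subunit of the NADH-oxidising module of complex I, is known to be made in a short and a long form through the use of an alternative exon. The array holds 3 probes for it on the plus strand of chromosome 17 (mm9), which gave different answers. The central 30 bases of each 60-base probe, bases 16 to 45 from the 5′ end, are shown so that each can be placed, with no base marked.
Ndufv3 upstream probe: cactccctccgtcctactgacttgtctcac
Ndufv3 middle probe: tcccaggtccaggaggtcttggaagatcag
Ndufv3 downstream probe: tggttcccatgaatccttgcctgtgagaat
The upstream probe (A_55_P2022634, chr17:31663758-31663817) was designed on the cDNA AK160289, and the middle probe (A_51_P140211, chr17:31665148-31665207) and the downstream probe (A_55_P2184180, chr17:31668209-31668268) on NM_030087. Which exon or untranslated region each probe covers was not determined here.

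The upstream probe read 0.66, 0.73, 1.12 and 0.88 in microglia replicates 1 to 4 and -1.32, -2.25, -1.18 and -1.59 in macrophages, as log2 signal relative to the 75th percentile of the array, the scale of all levels given here. All 4 macrophage values lay below all 4 microglia values. The difference was -2.43 ± 0.29 (SE, n = 4 per group), or 5.40-fold lower in macrophages, with an adjusted p of 0.00185 over the 29359 probes tested (limma).

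The middle probe, the brightest and therefore the value used for the gene, read 1.49, 1.25, 1.502 and 1.88 in microglia and 1.61, 1.87, 2.34 and 2.68 in macrophages. It was higher in the macrophages of each animal, by 0.60 ± 0.30 (SE), which did not pass the test (limma, adjusted p = 0.265). The downstream probe read 0.35, -0.54, 0.24 and 0.14 in microglia and 0.17, -0.049, 0.15 and -0.39 in macrophages. These ranges overlapped, and the difference was -0.078 ± 0.28 (SE), with an adjusted p of 0.893 (limma).

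Within an array, the upstream probe was 0.68 ± 0.28 log2 units below the middle probe in microglia and 3.71 ± 0.61 below it in macrophages (SD, n = 4). The 2 groups lay 3.03 log2 units apart in this distance, which is given as a description because Ndufv3 was singled out for it. The upstream probe's difference was -2.21 without macrophage replicate 2 (limma, adjusted p = 0.00121), and blocking on the animal gave an adjusted p of 0.0162 and blocking on the slide 0.0069. It was -2.01 within slide 1 and -2.68 within slide 2, where it did not pass (limma, adjusted p = 0.249 and 0.0957).

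**Figure D3:**
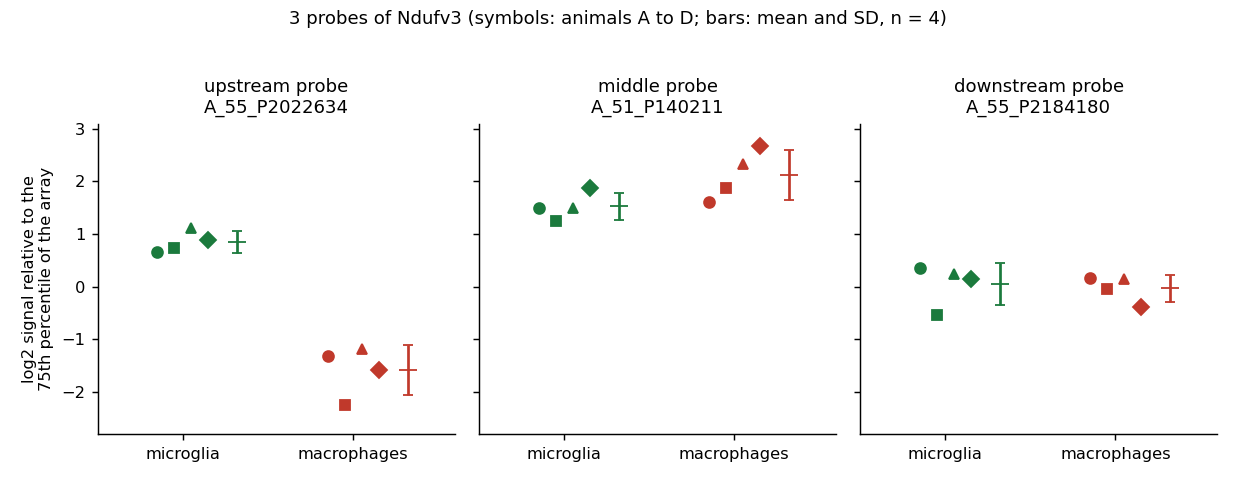
Log2 signal relative to the 75th percentile of the array (vertical axis) for the 3 probes of Ndufv3, ordered along chromosome 17, on the 4 microglia (green) and 4 macrophage (red) arrays; shapes are animals A to D and bars mean and SD. The upstream probe lies between 0.66 and 1.12 in microglia and between -2.25 and -1.18 in macrophages, while the groups overlap for the other probes.

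Complex I, which oxidises NADH, had 37 tested genes with a median difference of 0.31, of which 32 lay above 0 and 0 passed the test. Most core subunits of complex I named here had a difference above 0, while Ndufv1 and Ndufs3 lay below it. Ndufv1, which binds the flavin and NADH, had the lowest difference of the complex: it read -2.19, -2.98, -2.50 and -3.13 in microglia and -2.45, -3.65, -4.11 and -3.64 in macrophages. It was lower in macrophages in each of the 4 animals, although the groups overlapped, and it was above background on 4 microglia and 2 macrophage arrays. Its difference was -0.76 ± 0.39 (SE; limma, adjusted p = 0.272) on all arrays but 0.13 within slide 1 and -0.98 within slide 2.

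Ndufv2, the partner of Ndufv1 in the same module, had the highest difference among the core subunits of complex I, 0.69 ± 0.33 (SE; limma, adjusted p = 0.240), with values of 1.31, 1.01, 0.58 and 1.18 in microglia and 1.93, 0.97, 1.59 and 2.34 in macrophages. Only macrophage replicate 2 lay within the microglia range. Ndufs1, the largest iron-sulfur subunit, differed by 0.22, Ndufs7, which lines the ubiquinone site, by 0.31, Ndufs3 by -0.056 and Ndufs8, which holds a pair of iron-sulfur clusters, by 0.47. The 95% intervals of Ndufs1 and Ndufs3 lay between -0.69 and 0.78, so that a doubling or a halving was excluded for each.

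Accessory subunits of complex I reached larger differences. Ndufs5, an intermembrane-space subunit of the proximal membrane arm, read 0.86, -0.58, 0.94 and 1.02 in microglia and 1.98, 1.68, 1.80 and 2.02 in macrophages. The groups did not overlap, and microglia replicate 2 lay far below the other microglia. Its difference of 1.31 ± 0.37 (SE), 2.48-fold, was the highest of the complex and missed the threshold (limma, adjusted p = 0.0742; 0.0602 without macrophage replicate 2).
Ndufb7, another intermembrane-space subunit, which was singled out after its values were seen, read -1.004, -1.90, -1.11 and -1.53 in microglia and -1.05, -0.22, 0.30 and -0.37 in macrophages. Macrophages were higher in 3 animals and level with microglia in A, and the difference of 1.05 ± 0.34 (SE) did not pass (limma, adjusted p = 0.106). Ndufa4, named as a complex I subunit and since known to belong to complex IV, differed by 0.048 with an interval of -0.64 to 0.73.

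The 7 Ndufaf genes, whose products help to build complex I, did not share the shift of the subunits in their median, which was -0.053, with 3 of 7 above 0. Ndufaf6 had the highest difference, 1.17 ± 0.39 (SE; limma, adjusted p = 0.115), with values of -1.90, -1.35, -2.39 and -3.14 in microglia and -1.42, -1.01, -1.10 and -0.58 in macrophages. It was higher in the macrophages of each animal, by 0.34 in B and 2.56 in D at the extremes. Ndufaf7 had the lowest, -0.40 ± 0.25 (SE; limma, adjusted p = 0.369), and the difference between assembly factors and subunits was not tested.

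Complex II, succinate dehydrogenase, is entirely nuclear-encoded and links the chain to the tricarboxylic acid cycle. Its 4 subunits had nearly equal differences: 0.34 for Sdha, the flavin subunit, 0.40 for Sdhb, the iron-sulfur subunit, and 0.31 and 0.35 for the membrane anchors Sdhc and Sdhd (SE 0.23 to 0.33). None passed the test (lowest adjusted p = 0.394, limma). Sdhb read 3.40, 2.65, 2.95 and 3.03 in microglia and 3.75, 2.52, 3.65 and 3.72 in macrophages, so that 3 macrophage arrays lay above every microglia array and replicate 2 below every one. Without that array its difference was 0.70 (limma, adjusted p = 0.0753). A further, dimmer probe of Sdhb differed by -0.012 ± 0.45 (SE).

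Complex III, the cytochrome bc1 complex, had 8 tested genes with a median difference of 0.44 and 6 above 0. The core proteins Uqcrc1 and Uqcrc2 differed by 0.46 ± 0.27 and 0.42 ± 0.25 (SE), and the Rieske iron-sulfur protein Uqcrfs1 by 0.61 ± 0.43 (SE; limma, adjusted p = 0.424), the highest of the complex. Uqcrfs1 read -1.32, -2.97, -2.32 and -1.61 in microglia and -1.68, -1.42, -0.69 and -1.99 in macrophages, and was higher in the macrophages of animals B and C and lower in those of A and D. The lowest difference of the 8 was that of the small subunit Uqcr10, -0.39 ± 0.40 (SE), which was -0.025 without macrophage replicate 2. Its other 2 probes, which share a run of 53 bases, differed by 0.21 and 0.13, so its direction was not settled. Cytochrome c1 (Cyc1), a subunit of complex III that the name rule leaves out, differed by -0.39 ± 0.59 (SE; limma, adjusted p = 0.720). Its difference was 0.85 within slide 1 and -1.03 within slide 2.

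Complex IV, cytochrome c oxidase, had 15 tested nuclear genes with a median of 0.30 and 11 above 0. Its catalytic subunits are encoded by mitochondrial DNA, and several of its nuclear subunits exist as a ubiquitous form and a form of heart and skeletal muscle, testis or lung. The ubiquitous Cox4i1 read 3.14, 2.17, 2.92 and 2.75 in microglia and 3.45, 2.61, 3.01 and 3.27 in macrophages. It was higher in the macrophages of each animal, while the groups overlapped, and differed by 0.34 ± 0.29 (SE; limma, adjusted p = 0.515). Cox4i2, the form of lung that responds to low oxygen, read -2.58, -2.09, -2.35 and -2.49 in microglia and -2.74, -2.50, -2.26 and -3.01 in macrophages. It was above background on 4 microglia and 3 macrophage arrays, and its difference was -0.25 ± 0.24 (SE), with an interval of -0.80 to 0.29.

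Of the muscle forms, Cox7a1 had the highest difference of the complex. It read -0.38, -1.74, -0.84 and -1.38 in microglia and 0.087, -1.33, 0.92 and 0.48 in macrophages, so that 3 macrophage arrays lay above all microglia and replicate 2 among them. The difference was 1.12 ± 0.51 (SE; limma, adjusted p = 0.222) with all arrays and 1.58 without replicate 2 (limma, adjusted p = 0.0299), or 1.15 and 1.13 within slides 1 and 2. Cox6a2, also a muscle form, differed by 1.06 ± 0.45 (SE; limma, adjusted p = 0.193), by 2.31 within slide 1 and by 0.32 within slide 2. The ubiquitous partners had smaller differences, 0.57 for Cox7a2 and -0.15 for Cox6a1, and Cox7a2l, a supercomplex assembly factor of the same family, had 0.25. Differences between isoforms were not tested.

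The testis form Cox6b2 had the lowest difference of all 89 genes and the least certain. It was above background on 3 microglia arrays and 1 macrophage array, and read -3.35, -2.52, -1.85 and -1.07 in microglia and -1.62, -6.39, -4.19 and -5.03 in macrophages. Macrophage replicate 1 was higher than most microglia and the other 3 were below all of them. The difference of -2.11 ± 0.95 (SE; limma, adjusted p = 0.218) had an interval of -4.28 to 0.050, and was 1.31 within slide 1 and -3.75 within slide 2. Its ubiquitous partner Cox6b1 differed by 0.29 ± 0.30 (SE). Cox7b, which differed by 0.52 ± 0.30 (SE; limma, adjusted p = 0.331), passed without macrophage replicate 2 with 0.78 (limma, adjusted p = 0.0472). Its testis form Cox7b2 was not above background on any array, and neither were the muscle and testis forms Cox8b and Cox8c beside Cox8a, which differed by -0.40 ± 0.36 (SE) on all arrays, by 0.76 within slide 1 and by -1.03 within slide 2.

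Complex V, the ATP synthase, had a median of 0.51 over 15 tested genes, above that of the other complexes except on slide 1 alone (0.62, against 0.68 for complex IV). Of the 15, 13 lay above 0, 5 were higher at an unadjusted p under 0.05 (33.3%, against 11.5% of all genes) and 0 passed. The gap between complexes was not tested. Atp5j, coupling factor 6 of the peripheral stalk, came closest to the threshold of all 89 genes. It read -1.49, -2.57, -1.40 and -1.09 in microglia and -0.38, 0.083, -0.38 and -0.50 in macrophages. No macrophage array lay within the microglia range, and replicate 2 was here the highest macrophage array. The difference was 1.34 ± 0.34 (SE), 2.53-fold (limma, adjusted p = 0.0540; 0.134 blocked on the animal and 0.0584 without macrophage replicate 2). It passed under 6 of the 24 other ways of processing, among them median centring (limma, adjusted p = 0.0291), normexp (0.0353) and array weights (0.0376). A further, dimmer probe of Atp5j differed by 0.63 ± 0.86 (SE; limma, adjusted p = 0.698 over all probes), and its groups overlapped.

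The catalytic head was higher in the macrophages of each of the 4 animals for all 3 of its subunits named here, without passing the test. Atp5b, the beta subunit that holds the catalytic sites, read -0.094, -0.17, -0.29 and -0.30 in microglia and 0.32, 0.21, 0.75 and 1.20 in macrophages. The groups did not overlap, and the difference was 0.84 ± 0.26 (SE; limma, adjusted p = 0.0982; 0.0376 without macrophage replicate 2). Atp5c1, the gamma subunit that turns within the head, read 3.81, 2.87, 2.97 and 2.69 in microglia and 4.12, 3.60, 4.51 and 4.09 in macrophages. The only overlap was microglia replicate 1 above macrophage replicate 2, and the difference was 0.995 ± 0.31 (SE; limma, adjusted p = 0.1001; 0.0439 without macrophage replicate 2). The alignment of its 60-base probe covers 2857 bases of chromosome 2 in mm9 and so crosses an intron. A further, dimmer probe of Atp5c1 differed by 0.54 ± 0.31 (SE; limma, adjusted p = 0.326 over all probes), and its groups overlapped. Atp5a1, the alpha subunit, differed by 0.45 ± 0.25 (SE; limma, adjusted p = 0.304).

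The pseudogene Atp5c1-ps, singled out after its values were seen, read 3.65, 3.001, 3.41 and 3.57 in microglia and 4.44, 3.76, 4.20 and 4.27 in macrophages. The macrophage value was higher in every animal, by 0.79, 0.76, 0.79 and 0.70, and the fitted difference of 0.76 ± 0.24 (SE) did not pass (limma, adjusted p = 0.105; 0.0356 without macrophage replicate 2). Its probe has no run of 20 or more bases in common with those of Atp5c1, but signal of the parent gene on the probe of its copy was not tested.

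**Figure D4:**
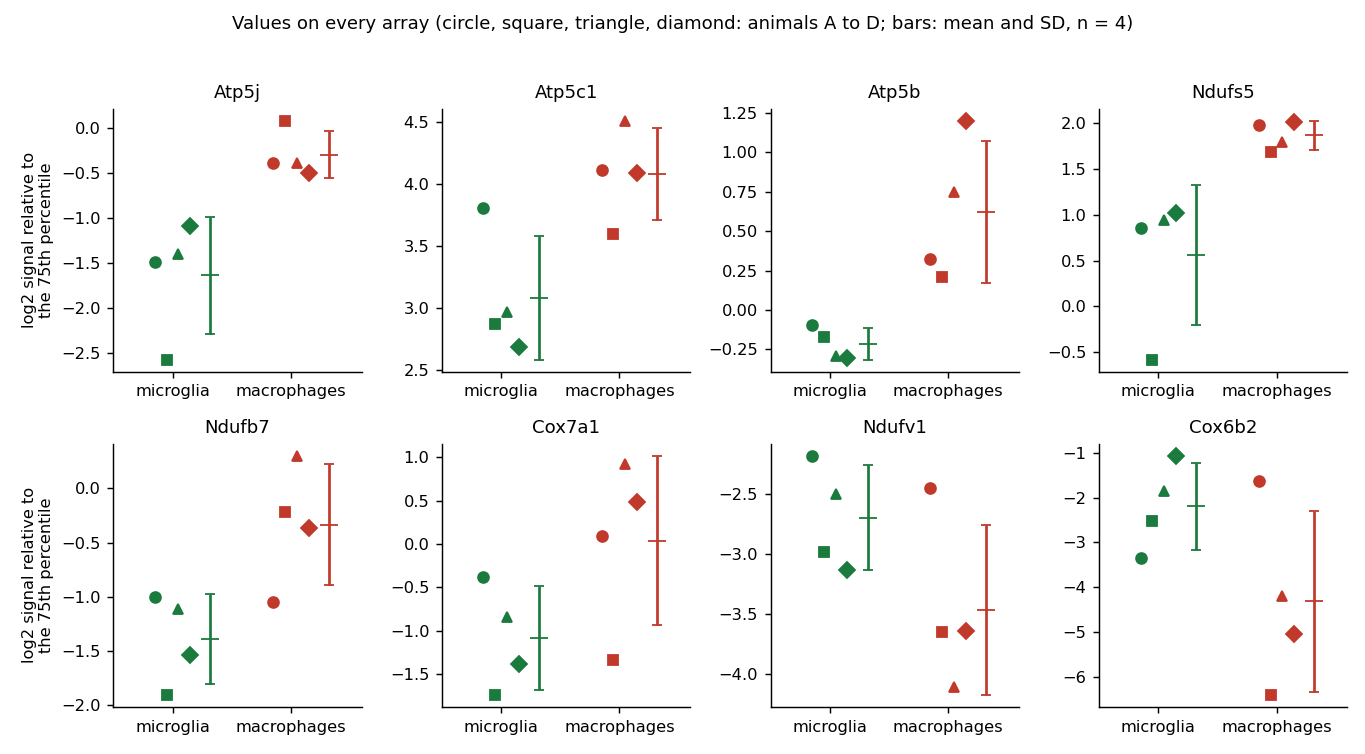
Log2 signal relative to the 75th percentile of the array (vertical axes, each with its own range) of 8 respiratory chain genes on the 4 microglia (green) and 4 macrophage (red) arrays; shapes are animals A to D and bars mean and SD. Atp5j, Atp5b and Ndufs5 show no overlap between the groups, with macrophage values above those of microglia, while Cox6b2 spreads from -6.39 to -1.62 in macrophages.

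Atp5k, subunit e of the membrane part, was measured by 3 probes, and 1 of them was the only other respiratory chain probe to pass. The central 30 bases are shown for the passing probe and for the probe of the same part of the transcript on another contig. The full probes share a run of 27 bases and are not separate measurements. That run does not lie wholly within the bases shown, which differ at a base where they overlap.
Atp5k passing probe: tctctagtcgttgaggacgaataaagcttc
Atp5k related probe: ctagtcgttgagaacgaataaagcttcatt
The passing probe (A_55_P2168663, placed by the array files on the unlocalised contig 5_random, 87121 to 87180, minus strand, mm9) read -0.29, -1.16, -0.47 and -0.39 in microglia and 0.46, 0.63, 0.83 and 0.35 in macrophages. The groups did not overlap, and the difference was 1.14 ± 0.27 (SE; limma, adjusted p = 0.0396 over all probes, 0.104 blocked on the animal and 0.0841 blocked on the slide). The related probe (A_55_P2149719, chr5:108862263-108862322) differed by 1.05 ± 0.28 (SE; limma, adjusted p = 0.0625). The brightest probe, which stands for the gene, differed by 0.79 ± 0.29 (SE; limma, adjusted p = 0.149).

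The c-ring of the ATP synthase is built from a protein made by any of 3 genes, which differed in direction. Atp5g1 read 4.34, 4.31, 4.30 and 4.29 in microglia and 3.93, 3.98, 3.90 and 3.95 in macrophages. It was the only one of the 89 genes with every macrophage array below every microglia array, and its spread was small, with an SD of 0.021 and 0.034. The difference was -0.37, and because limma adds spread borrowed from all genes its SE was 0.18 and the adjusted p 0.249. It kept this sign under all 24 alternatives, between -0.59 with quantile normalization and -0.080 as the mean of its probes. A further probe of Atp5g1 differed by 0.21 ± 0.29 (SE). Atp5g2 differed by -0.57 ± 0.34 (SE; limma, adjusted p = 0.344), the lowest of the complex, and Atp5g3 by 0.50 ± 0.41 (SE; limma, adjusted p = 0.492). Atp5sl, which is now named Dmac2 and is an assembly factor of complex I, differed by -0.96 ± 0.74 (SE) and by -0.31 without macrophage replicate 2.

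Over all probes, 130 of the 136 probes of the 93 genes were bright enough to test, and 2 of them passed, the upstream probe of Ndufv3 and the probe of Atp5k (2.34% of all 29359 probes were higher and 4.11% lower, 6.45% together). Among the 30 genes with several bright probes, 14 of 41 further probes, from 11 genes, had the opposite sign to the probe that stood for the gene, and 1, that of Ndufv3, lay more than 1 log2 unit away. Among the other such genes were Atp5g1, Cox7c, Ndufa3, Ndufaf4, Ndufb11, Ndufb2, Sdhb, Uqcr10 and Uqcrq, whose signs depend on the probe. For Ndufb11, the gene value of -0.15 stood beside 0.55 and 0.81, and 1 of these probes is placed on chromosome 5 although the gene lies on chromosome X. Probes of 6 genes (Atp5j2, Atp5k, Atp5l, Ndufb11, Uqcr11 and Uqcrh) were placed on more than 1 chromosome or contig, where signal of gene copies cannot be told apart.

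Of the subunits encoded by mitochondrial DNA, all 13 were tested and 0 passed, also at an unadjusted p under 0.05 (0 of 13, limma). Their median difference was -0.0014, with the other sign and 0.20 when arrays were centred on their median, and members ran from -0.13 for ND2 of complex I to 0.22 for ATP8 of complex V. COX1, the catalytic subunit of complex IV, read 7.90, 7.38, 7.58 and 7.73 in microglia and 8.01, 7.46, 7.74 and 7.84 in macrophages. These ranges overlapped almost wholly, and the difference was 0.12 ± 0.22 (SE). COX1 was the 1 gene of the 13 with the higher value in the macrophages of all 4 animals (7.69%, against 17.9% of all genes). The 95% intervals of all 13 lay within -0.64 to 0.77 and so excluded a doubling and a halving. Within animals their median was 0.25 in A, 0.036 in B, -0.14 in C and -0.15 in D, and it was 0.32 within slide 1. The array files place 6 of the 13 probes on chromosome 1, where the nuclear genome holds a copy of mitochondrial sequence, and the other 7 on the mitochondrial genome. The difference between nuclear and mitochondrially encoded subunits was not tested.

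Among genes that work beside the chain, 2 passed. Higd2a, which helps to assemble complex IV and supercomplexes, was the only lower one. It read 3.82, 3.82, 4.004 and 3.51 in microglia and 2.02, 2.63, 2.72 and 2.59 in macrophages. The groups were well apart, and Higd2a fell by 1.30 on the log2 scale with an SE of 0.24 (limma, adjusted p = 0.0156; 0.0557 blocked on the animal, 0.0273 blocked on the slide). It was lower by the same sign within both slides, at -1.80 and -1.11.

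Gpd2, the mitochondrial glycerol-3-phosphate dehydrogenase, which feeds electrons from glycolysis to ubiquinone, rose. It read 0.57, 0.68, 0.24 and 0.65 in microglia and 1.90, 3.94, 2.51 and 2.05 in macrophages, with replicate 2 the highest. The difference was 2.06 ± 0.44 (SE), 4.18-fold (limma, adjusted p = 0.0279; 0.0602 blocked on the animal and 0.0636 blocked on the slide). Without macrophage replicate 2 it was 1.62 (limma, adjusted p = 0.00502). Of 4 tested donors to ubiquinone beside complexes I and II it was the only one to pass, and their median was 0.49.

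Cytochrome c, complex III subunits under other names and accessory proteins of complex V had 7 tested genes with a median of 0.30. Higd2a, the one that passed, was kept in this list although it is of none of these kinds, as was Higd1a. Cycs, cytochrome c itself, read 4.57, 4.50, 4.59 and 5.01 in microglia and 6.03, 4.97, 5.92 and 5.62 in macrophages. Only macrophage replicate 2 lay within the microglia range, and the difference was 0.96 ± 0.28 (SE; limma, adjusted p = 0.0824; 0.0130 without replicate 2). 2010107E04Rik, a small accessory protein of the ATP synthase, had the highest difference of this list, 1.04 ± 0.28 (SE; limma, adjusted p = 0.0621).

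In 4 further lists no gene passed, and their medians ran from 0.046 to 0.41. Of 32 assembly factors under other names 0 passed (median 0.046), from Tmem126b at 0.76 to Bcs1l, the complex III assembly ATPase, at -1.50. Of 18 enzymes of the tricarboxylic acid cycle and pyruvate entry 0 passed (median 0.41), from Idh3a at 0.78 to Dlat at -1.06. Of 9 carriers and channels 0 passed (median 0.27), from the adenine nucleotide carrier Slc25a4 at 0.42 to the pyruvate carrier Mpc1 at -0.20. Of 12 regulators of mitochondrial biogenesis and DNA 0 passed (median 0.18), from Gabpa at 0.59 to the mitochondrial RNA polymerase Polrmt at -0.53. At an unadjusted p under 0.05 these 4 lists had 4 (12.5%), 5 (27.8%), 0 and 0 genes (limma), against 23.9% of all genes.

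Larger sets of housekeeping genes had medians of 0.32 to 0.43. The difference was above 0 for 73.7% of the mitochondrial ribosomal, 87.6% of the cytosolic ribosomal and 97.4% of the proteasome genes. The share was 79.8% for the respiratory chain genes, so their shift to one side was not particular to them. Of 76 mitochondrial ribosomal proteins 0 passed, with 17 at an unadjusted p under 0.05 (22.4%, against 23.9% of all genes; limma) and a median of 0.34, from Mrps28 at 1.38 to Mrps34 at -1.82. Of 97 genes named as cytosolic ribosomal proteins 1 passed, the kinase Rps6ka3, which the name rule takes in, with a median of 0.32. Of 39 proteasome genes 1 passed, Psma2 of the core particle, at 1.02 ± 0.23 (SE; limma, adjusted p = 0.0336; 0.0905 blocked on the animal and 0.0644 blocked on the slide), with a median of 0.43. Rps6ka3 differed by 0.96 ± 0.20 (SE; limma, adjusted p = 0.0256; 0.0908 blocked on the animal and 0.0583 blocked on the slide). The ends of these 2 lists were the kinases Rps6ka2 at 1.11 and Rps6kc1 at -0.999, and Psmc3ip, which is no proteasome subunit, at 1.21 and Psmd3 at -0.019.

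**Figure D5:**
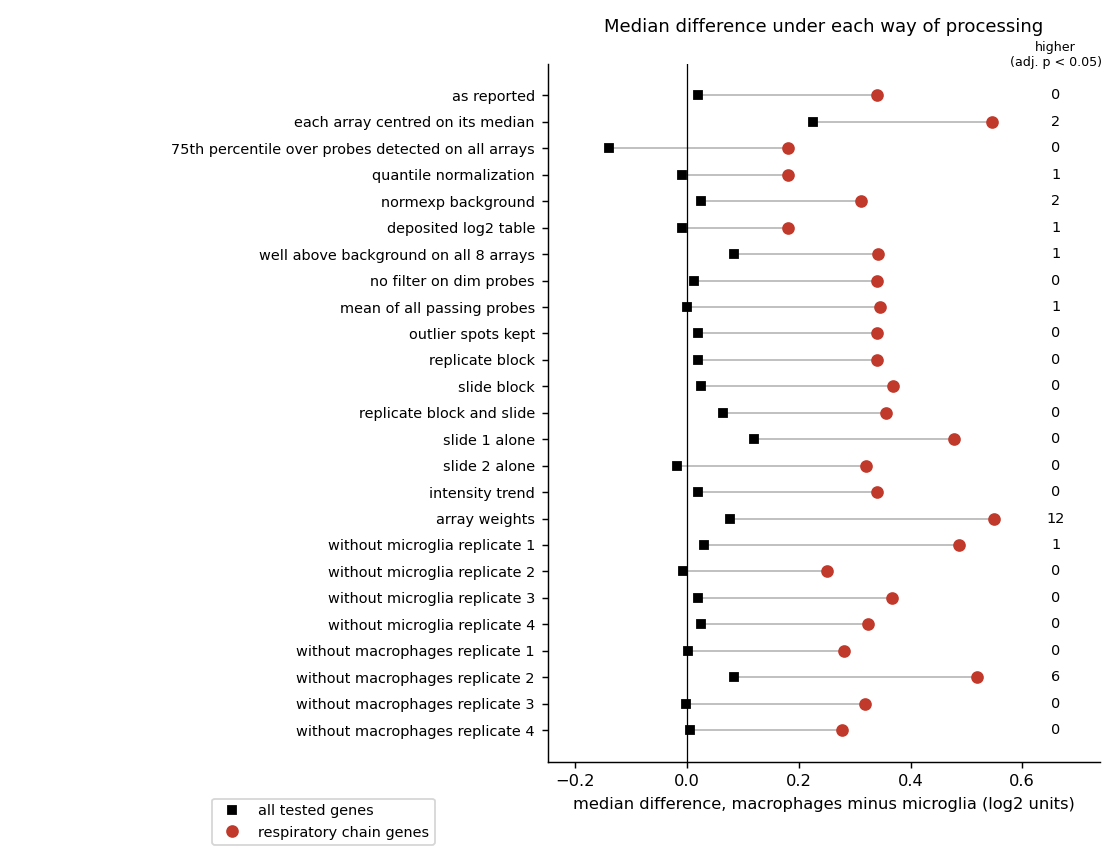
Median difference between macrophages and microglia (log2 units, horizontal axis) of the respiratory chain genes (red circles) and of all tested genes (black squares) under each way of processing, with the number of respiratory chain genes higher at an adjusted p of 0.05 at the right. The median of the respiratory chain genes lies between 0.18 and 0.55 and to the right of that of all genes in every row, and the count reaches 12 with array weights and 6 without macrophage replicate 2.

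Many genes of the chain are known targets of NRF1, of ETS factors such as GABP and of YY1. Promoter windows from 250 bases before to 50 after the start site were taken from RefSeq (build GRCm38.p6), which held a window for 76 of the 93 genes, and were searched on both strands. The NRF1 core GCATGCG lay in the windows of 13 genes (17.1%, against 4.01% of all genes with a window), the ETS core CCGGAAG in 17 (22.4%, against 9.93%) and the YY1 core ATGGCGG in 12 (15.8%, against 4.69%). The letters ATGGCGG also hold the start codon ATG. In Ndufs4, Ndufs6 and Ndufa9 they began 38, 36 and 32 bases past the start site, and whether such matches are YY1 sites was not tested. These searches were not tied to the differences. Stretches with the NRF1 core, in capitals, are shown for 3 genes of the ATP synthase that carry it before the start site and whose differences were unlike, in the direction of transcription.
Atp5j promoter, chr16:84835096-84835142, minus strand: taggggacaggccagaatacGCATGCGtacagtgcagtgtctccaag
Atp5k promoter, chr5:108434421-108434467, minus strand: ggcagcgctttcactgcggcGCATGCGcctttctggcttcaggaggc
Atp5g2 promoter, chr15:102671061-102671107, minus strand: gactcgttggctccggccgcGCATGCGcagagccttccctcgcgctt
Atp5j differed by 1.34, Atp5k by 0.79 and Atp5g2 by -0.57, so that genes with the same core lay on either side of 0. The window of Atp5j held all 3 cores, and those of Atp5k (0.79), Atp5l (0.54), Sdhb (0.40), Cox6a1 (-0.15) and Uqcr11 (-0.29) held the NRF1 and the ETS core. Among the other carriers of the NRF1 core, Uqcrc1 differed by 0.46 and Ndufa11, an accessory subunit of complex I, by 0.15.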

How the data were processed

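Intensities are the processed signals of the scanner files as deposited by the authors. Per the file headers they come from Agilent Feature Extraction 10.7.3.1, with mm9 coordinates. A deposited table of log2 values by the authors served as an alternative; its column medians lay at 4.604 to 4.606, each column tracked its array at a correlation of 0.996 to 1.000, and its centring is unknown.

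Control and outlier spots were left out, spots of a probe averaged, and the 75th percentile of log2 signal subtracted per array. The brightest probe above background on 4 or more arrays stood for a gene name of the array design. Groups were compared by lmFit and eBayes (limma 3.58.1 in R 4.3.3; two-sided tests, Benjamini-Hochberg adjustment). The code was tested on simulated data, where 2 of 50 genes changed by 1 log2 unit were recovered and 28 of 50 changed by 2. In that simulation 19519 of 19719 genes were left unchanged, while 1313 genes were called in the data. The adjustment is stricter where fewer genes differ, so these rates may understate the recovery in the data. The lack of a call still does not show that a gene was unchanged. Tables were made in Python 3.11.15.

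Replicate numbers follow the animals, so samples are paired by label. Across genes, same-animal deviations from the group means correlated at 0.063, 0.10, 0.065 and -0.012 for A to D. The blocked value is given where it ends a call. A member counted in the totals is not reported here.

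The members and lists were chosen with earlier results of these data known. Genes were named by rule: the core subunits, the isoform families, the extremes of each complex and list, dim members, and members whose probes disagree in sign. Others were picked with their values in view: Ndufb7, Atp5c1-ps, Cycs, Cyc1, COX1, Rps6ka3 and Psma2. So were genes called under an alternative alone and carriers of a motif, whose letters were shortened after a first search.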

Additional observations from a re-analysis of the deposited data

Results flagged for a closer look

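In 5 of 102 groups of 4 arrays examined for the named genes, 1 array lay far from the other 3 (Dixon's criterion); chance alone gives about 5%, or 1 group in 20. In macrophages the array was replicate 2 each time: Ndufs1 read 3.64 against 4.18 to 4.27, Ndufs8 3.80 against 4.59 to 4.75, Sdhb 2.52 against 3.65 to 3.75, and Cox8b, which was never above background, -6.49 against -5.23 to -5.08. In microglia it was replicate 2 for Ndufs5, at -0.58 against 0.86 to 1.02. Macrophage replicate 2 is also the array with the most endothelial marker signal, and the part of that in these values was not tested.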

How the results depend on the processing

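Under 24 other ways of processing and 1 added after seeing the data (subunits alone), the median difference of the respiratory chain genes stayed above 0, between 0.18 and 0.55, while the median of all tested genes moved between -0.14 and 0.22 (0.019 in the report's fit). For 47 named genes, 1103 of 1124 values under the alternatives kept their side of the threshold and 21 newly passed; 63 values, in 16 genes, had the other sign. The cause of each change below was not tested. Respiratory chain genes called higher, 0 in the report, numbered 2 with median centring and 2 with normexp, 1 each with quantile normalization, the deposited table, background passed on all 8 arrays and the mean of probes, and 12 with array weights. With every probe tested on its own, added after seeing the data, 1 gene was higher and 1 lower. Genes called higher over the whole array, 496 in the report's fit, numbered 800 with median centring, 277 with no filter, 271 with slide as a block, 48 and 8 on slide 1 and slide 2 alone, and 2025 with array weights. Genes called lower, 817 there, numbered 1270 with the percentile over detected probes, 494 with background passed on all 8 arrays, 176 and 114 on slide 1 and slide 2 alone, and 1670 with array weights.

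With the animal as a replicate block, the pairing lowered these counts to 255 higher and 483 lower, and to 256 and 471 with the slide added; it changed no call of a respiratory chain gene, and ended those of Higd2a, Gpd2, Rps6ka3 and Psma2 and of the Atp5k probe, as given in the report. Blocked on animal and slide, the median of the cytochrome c list was 0.56 and that of the other electron donors 0.69.

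List medians that moved were those of complex IV on slide 1 alone (0.68), of the mitochondrially encoded genes, which turned to 0.20 with median centring and 0.32 on slide 1 alone, and of the cytochrome c list on slide 1 alone (0.81). The tricarboxylic acid cycle list gave 0.167 with quantile normalization, 0.167 with the deposited table and 0.072 with the mean of probes. The other electron donors gave 0.70 with median centring, 0.34 with the percentile over detected probes, 0.82 with background passed on all 8 arrays, and 0.76 and 1.01 on slide 1 and slide 2 alone. The regulators gave 0.39 with median centring, 0.024 with the percentile over detected probes, 0.0014 with the mean of probes and 0.030 on slide 1 alone.

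Leaving out each sample in turn gave 198 (without microglia replicate 2) to 1630 (without macrophage replicate 2) genes called higher over the array and 442 to 1355 called lower for the same omissions. Respiratory chain genes called higher ranged from 0 to 6, with 0 lower, and their median from 0.25 to 0.52. The median of the cytochrome c list ranged from 0.27 to 0.58 and that of the other electron donors from 0.38 to 0.82.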
